A study of Mus musculus with 10 samples.

Results

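This report covers 7 of the 10 arrays of the series: 3 arrays of natural killer (NK) cells after 24 h of culture in the cytokine IL-15, at 100 ng/mL, and 4 arrays of bulk splenocytes. The arrays were chosen by their titles, and every gene on the array entered the comparison. Splenocytes are the mixed cells of the spleen, mostly B and T lymphocytes with myeloid and red-cell lineages, and the NK cells were purified from the same organ. The comparison therefore asks what sets activated NK cells apart from the tissue they come from. Each difference combines NK identity with the effect of 24 h in culture with IL-15, and values of resting NK cells, from the other 3 arrays, stand beside the results for that reason.

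NK cells destroy virus-infected and tumour cells by releasing perforin and granzymes from cytotoxic granules, and they secrete interferon gamma and chemokines. Their receptors are germline-encoded lectins and immunoglobulin-family proteins, and some of the activating ones signal through ITAM adaptors. IL-15 binds the IL-2 receptor beta and common gamma chains, activates JAK1, JAK3 and STAT5, and is known to keep NK cells alive, raise their granzyme stores and drive them into growth and division. B cells, T cells, macrophages, neutrophils and erythroid cells each carry transcripts that NK cells lack or hold at low levels.

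NK cells came from wild-type C57Bl/6 mice; the labels used here give no age, and no strain for the splenocytes. NK cells were flow sorted from spleen to over 99% NK1.1+CD3- cells and were lysed in Trizol after culture with recombinant mouse IL-15, or directly in the resting group. Bulk splenocytes were lysed in Trizol at rest. Per the series' design text, the IL-15 and resting NK groups have 3 biological replicates each and are called pairs, which were fitted here without a pair term, whereas for splenocytes 2 biological samples were each run on 2 chips. Which chips belong to the same sample, and whether mice were pooled, is not given in the sources used here, so the largest p of the 3 possible chip pairings was kept for each gene. NK RNA was amplified by a 2-cycle and splenocyte RNA by a 1-cycle procedure, so amplification and cell population cannot be told apart. NK cells cultured without IL-15 were not analysed here. In bulk samples, fewer cells of a type and less RNA per cell cannot be told apart.

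Each array gave 45101 probe-set signals on the authors' linear scale, with a trimmed mean between 1498.6 and 1499.9 on each of the 7 arrays, so levels are relative within an array. Values at or below 179.8 signal units, called the floor here, were treated as not measured. Above the floor lay 51.1% to 56.5% of signals on the IL-15 arrays and 61.2% to 62.4% on the splenocyte chips. Between any pair of IL-15 arrays the median probe set above the floor on both differed by 0.27 to 0.32 on the log2 scale. Between any pair of chips it differed by 0.22 to 0.31. The ratio of 3-prime to 5-prime signal of Gapdh was 2.90 to 3.81 on the IL-15 arrays, 5.88 to 9.54 on the resting NK arrays and at most 1.39 on the splenocyte chips, and that of Actb was 1.28 to 1.49, 2.27 to 6.51 and 1.34 to 1.59. The part of this difference in the results was not tested. The number of arrays limits the precision, and with 2 splenocyte samples the spread between spleens is poorly known.

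IL-15 NK cells differed from splenocytes at a large share of all genes. Of 12465 genes tested, 5524 passed an adjusted p of 0.05 in limma, which is 44.3% of them. Of these, 2596 were higher in IL-15 NK cells (20.8% of genes tested) and 2928 were lower (23.5%), so any list of genes should be read against these shares. Differences of at least 2-fold were found in 1720 higher and 2170 lower genes, and of at least 16-fold in 28 higher and 232 lower genes. The large differences thus lay mainly on the lower side: 653 genes were above the floor on all 4 splenocyte chips and at the floor on all 3 IL-15 arrays, and 56 genes the reverse. Among the genes that passed, 5397 had no overlap between the 3 arrays and the 4 chips, as had 7185 of all genes tested. The median log2 difference over all genes tested was -0.10. The balance of calls depended on scaling: 47.0% of the genes that passed were higher as deposited, 56.7% after quantile normalization (median of all genes 0.11) and 42.2% with arrays centred on their medians (median of all genes -0.17), and averaging the probe sets of a gene gave 38.4%. That averaging also moved the fold of 51 of the 168 named genes by over 1.5 times, since each gene is represented here by its brightest probe set. Where an array of the dimmer group lay at the floor, the fold is a lower bound, written as at least. A gene at the floor on every array of either group could be tested only through the other group, so the filter set its direction. Flooring also left the dimmer group of such a gene without spread. Its p therefore does not measure the spread within that group.

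**Figure D1:**
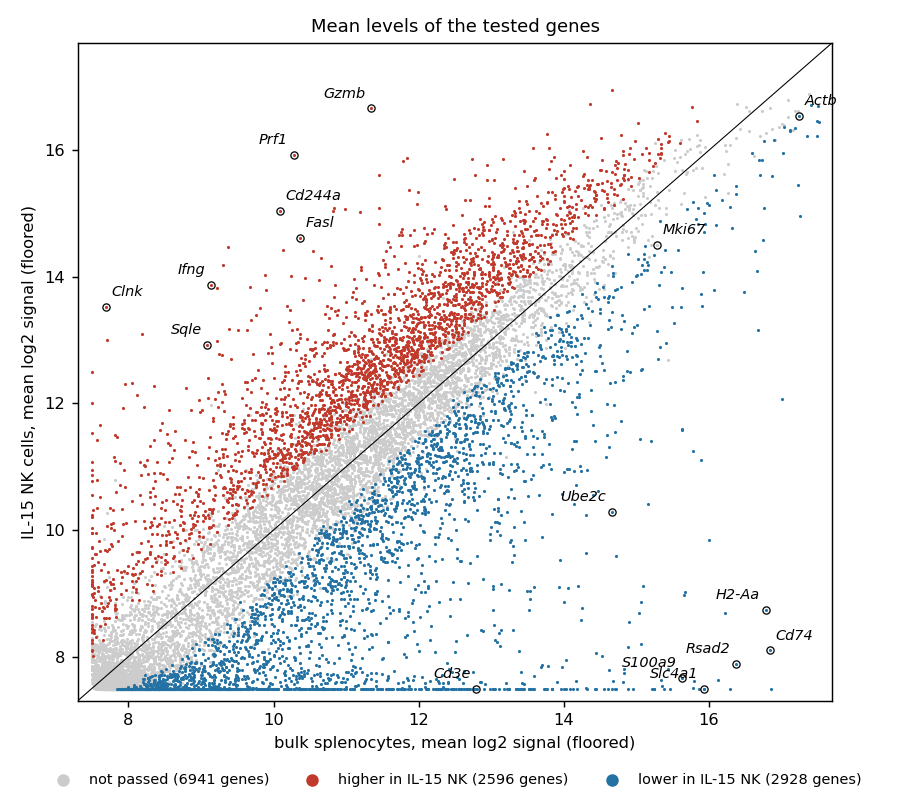
Mean log2 signal of each tested gene, after setting low signals to the floor, in bulk splenocytes (horizontal axis, 4 chips) against IL-15 NK cells (vertical axis, 3 arrays). Red points are the 2596 genes higher and blue points the 2928 genes lower in IL-15 NK cells, grey points did not pass, and the line marks equal levels; blue points reach farther from the line than red ones.

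The label of the sorted cells was checked against marker genes of the cell types that spleen holds. The summed signal of 24 NK receptor genes was 330513.5 to 369339 on the IL-15 arrays and 49429 to 59144 on the splenocyte chips. For 21 B-cell markers the sum was 9392 to 14224 against 562629.0 to 651337, with 10 of the 21 at the floor on all IL-15 arrays, Cd79a and Ms4a1 among them. For 13 neutrophil markers it was 844 to 1135 against 136231 to 245755. The 19 T-cell markers summed to 16935 to 21791 against 105666 to 126441, the 20 macrophage and monocyte markers to 12829 to 13705 against 305235 to 331178, and the 18 erythroid markers to 28200.0 to 29063 against 323133 to 418514. Resting NK arrays held more B-cell signal than IL-15 arrays, 28188 to 91275. The defining genes Cd3e, Cd79a, Ms4a1, C1qa and Slc4a1 lay at the floor on all 3 IL-15 arrays. Other markers did not: Cd3g of T cells and Ighm, Cd22 and Bank1 of B cells were above the floor on all 3 IL-15 arrays, and Cd3d on 2 of the 3. The part of the remaining marker signal in the results was not tested.

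**Figure D2:**
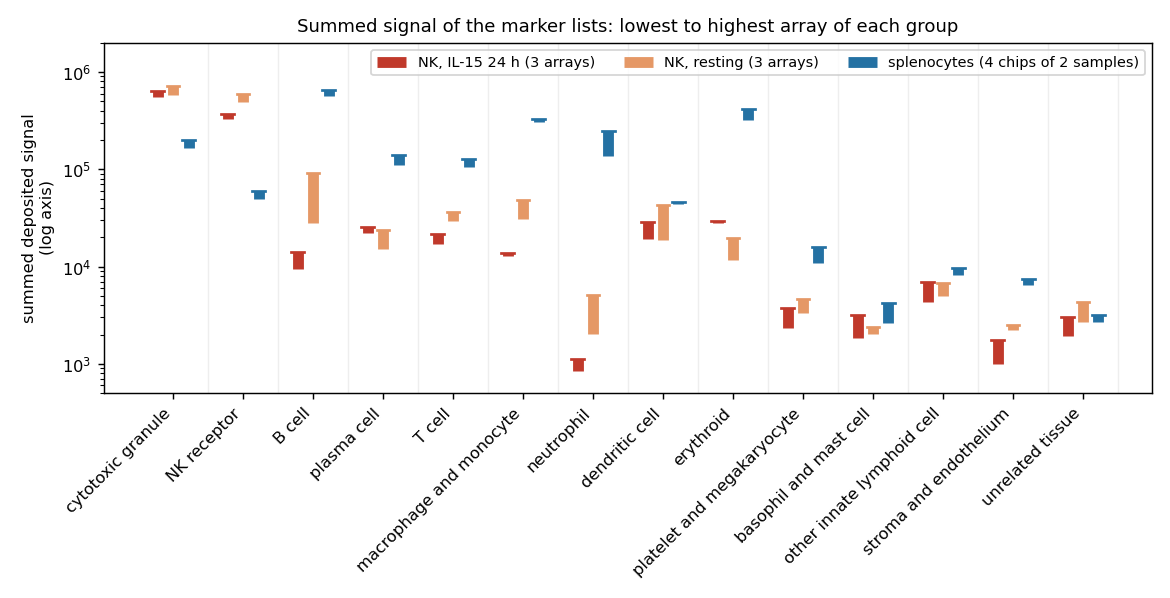
Summed deposited signal of each marker list (vertical log axis), drawn from the lowest to the highest array of IL-15 NK cells (3 arrays), resting NK cells (3 arrays) and splenocytes (4 chips). The sums of the granule and NK receptor lists were above the splenocyte range in both NK groups, and those of the B-cell, T-cell, macrophage, neutrophil and erythroid lists were below it.

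Most tested genes of the cytotoxic granule were higher in IL-15 NK cells than in splenocytes. Of 26 granule genes 21 were tested, and 16 were higher in IL-15 NK cells, 1 was lower and 4 did not pass, with a median log2 difference of 1.46. Resting NK cells against splenocytes gave 17 higher and 1 lower of the same 21, with a median of 1.69. Between IL-15 and resting NK cells 2 were higher and 4 lower, where 13.5% of all genes were higher and 11.5% lower. The signal of Prf1, which encodes the pore-forming protein perforin, was 67660.5, 52850.5 and 67146 on the IL-15 arrays and 1631, 1508, 980.5 and 977 on the splenocyte chips. Every IL-15 value was thus far above every splenocyte value, and Prf1 was 50.2-fold higher (log2 difference 5.65 ± 0.25 SE, limma adjusted p = 1.9e-06). The resting NK arrays read 74072, 99359 and 68392 for Prf1, and its IL-15 minus resting difference did not pass. A dimmer probe set of Prf1 had a difference of -0.83 and did not pass as higher, and the mean over both probe sets gave 5.30-fold. Gzmb, the granzyme that cleaves caspases in the target cell, had signals of 118768, 81198 and 115145 and 3465, 2020.2, 1995 and 3267 and was 39.8-fold higher (5.32 ± 0.25 SE, limma adjusted p = 3.1e-06). Its level in resting NK cells lay between the groups, at 39432, 40083 and 44110.3.

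The other granule genes differed in how far splenocytes already expressed them. Gzma, the tryptase of the granule, was at 138622, 109547 and 134063 on the IL-15 arrays and still at 35063, 23156, 19539 and 28103 on the splenocyte chips, a 4.90-fold difference (limma adjusted p = 1.5e-04). Its resting NK signals were 155941, 224872 and 170205, and the IL-15 minus resting difference did not pass. Gzmc, a granzyme of strongly activated killer cells, was at 4219.5, 3082 and 5294 on the IL-15 arrays and at the floor on all 4 chips, a difference of at least 22.8-fold (limma adjusted p = 1.4e-04). Resting NK arrays gave 322, 157 and 559 for Gzmc, close to the floor. Fasl, the ligand that triggers the death receptor Fas, was 19.1-fold higher, at 25645, 24802 and 25106 against 1164, 1060.3, 1415 and 1734 (limma adjusted p = 1.9e-06). Serpinb9, which protects the killer cell from its own granzyme B, was 11.4-fold higher, and Nkg7, a granule membrane protein, 8.73-fold higher. The proteoglycan gene Srgn, which packs granule proteins but is used by many blood cells, was the 1 granule gene lower in IL-15 NK cells, at 31506, 48387 and 36213 against 82009, 76677, 71666 and 67665 (limma adjusted p = 0.040). That call was lost under 5 alternatives, among them quantile normalization and leaving out IL-15 replicate 1, IL-15 replicate 3 or resting NK replicate 1.

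The promoter of Gzmb is printed because RUNX factors are known regulators of cytotoxic genes and Gzmb had the second-largest difference of the granule list. The motif searched was TGTGGTT, on both strands of the 250 bases before to 50 bases after each RefSeq gene start of GRCm38.p6. It stood in the promoters of 5 of 19 granule genes with a promoter in the table (26.3%) and of 4.7% of all 10097 tested genes that had one. It was 1 of 12 motifs searched. A match is a description of these letters and shows no binding. The 250 bases before the start of Gzmb, chr14:56262335-56262584 on the minus strand, hold the motif in capitals, 34 bases before the start.
Gzmb promoter: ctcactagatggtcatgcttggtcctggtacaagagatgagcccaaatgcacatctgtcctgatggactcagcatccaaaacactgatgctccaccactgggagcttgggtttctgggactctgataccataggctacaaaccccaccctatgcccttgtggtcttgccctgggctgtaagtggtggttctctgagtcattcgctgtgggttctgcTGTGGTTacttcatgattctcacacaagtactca

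**Figure D3:**
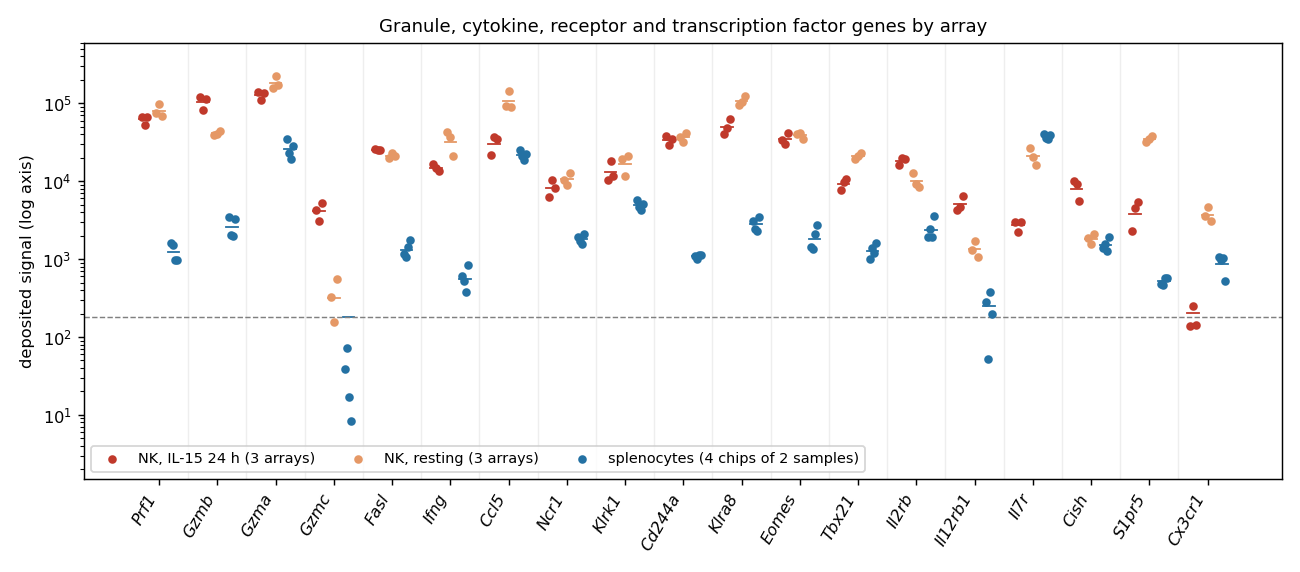
Deposited signal on each array (vertical log axis) of granule, cytokine, receptor, transcription factor and homing genes in IL-15 NK cells, resting NK cells and splenocytes; short bars are geometric means after flooring and the dashed line is the floor of 179.8. Prf1, Gzmb, Fasl, Cd244a and Eomes were higher on each IL-15 array than on each splenocyte chip, Ccl5 overlapped, and Il7r and Cx3cr1 were lower.

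Genes of secreted products went both ways. Of 11 cytokine and chemokine genes tested, 5 were higher and 3 lower, where 20.8% of all genes tested were higher and 23.5% lower. Ifng, encoding interferon gamma, had signals of 16659.7, 14857 and 13587 on the IL-15 arrays and 606, 518, 374 and 850.3 on the chips, 26.7-fold higher (4.74 ± 0.32 SE, limma adjusted p = 1.5e-05). Its resting NK level was higher still, at 42491, 36830.0 and 21218. The macrophage-attracting chemokines Ccl3 and Ccl4 were 9.76-fold and 13.9-fold higher, Xcl1, which attracts cross-presenting dendritic cells, 7.08-fold, and the growth factor gene Csf2 at least 3.16-fold. Ccl5, a chemokine stored by NK and memory T cells, was at 21735, 36834 and 34758 on the IL-15 arrays and 25488, 20915, 18940.3 and 22445 on the chips, and these ranges overlapped (log2 difference 0.47 ± 0.29 SE, limma adjusted p = 0.21). Resting NK arrays had 92671, 143416 and 90243 for Ccl5, all above both groups. Ltb, a membrane lymphotoxin of B and T cells that maintains lymphoid tissue, was 16.3-fold lower (limma adjusted p = 1.7e-04), and Lta and Tgfb1 were lower too.

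Most NK receptor genes were higher. Of 23 tested, 16 were higher, 1 was lower and 6 did not pass, with a median of 2.16. Resting NK cells against splenocytes gave 17 higher and 1 lower of the same 23. Between IL-15 and resting NK cells 0 were higher and 6 lower, where 13.5% of all genes were higher and 11.5% lower. Cd244a, encoding the SLAM-family receptor 2B4, had signals of 37477, 29058 and 35193 against 1089.8, 1007, 1119 and 1137, 31.0-fold higher (limma adjusted p = 1.9e-06). The lectin genes Klrb1b and Klrb1f were 24.4-fold and 17.9-fold higher, and Klra8, encoding the Ly49H receptor that recognises a cytomegalovirus protein, 17.9-fold. Genes of the Klra and Klrb1 families are near-identical copies in part, so signals may be shared between them. Ncr1, the activating receptor NKp46, was 4.46-fold higher at 6216, 10379.9 and 8104 against 1909, 1705, 1569 and 2091 (limma adjusted p = 2.3e-04). Klrk1, encoding NKG2D, was 2.65-fold higher, at 10355, 17979 and 11732 against 5783, 4595, 4252 and 5111 (limma adjusted p = 0.0062). Havcr2, the inhibitory receptor TIM-3 that myeloid cells also carry, was the 1 receptor gene lower, at the floor on all IL-15 arrays and at 512, 779, 776 and 814 on the chips. The 6 that did not pass were Lag3, Cd7, Cd226, Klrc2, Fcgr3 and Slamf7, with log2 differences from -0.41 to 0.10. Without IL-15 replicate 2 the lower receptor genes numbered 2.

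Signalling genes behind these receptors went both ways. Of 15 adaptor and kinase genes, 6 were higher and 5 lower, where 20.8% of all genes tested were higher and 23.5% lower. The adaptor DAP12 gene Tyrobp, the kinase genes Zap70 and Fyn, the exchange factor genes Vav1 and Vav3 and the SLAM adaptor gene Sh2d1a were higher, Sh2d1a 3.05-fold (limma adjusted p = 8.2e-04) and Zap70 2.45-fold (limma adjusted p = 0.0022). Lower were Lat, the T-cell adaptor, by 3.95-fold (limma adjusted p = 7.5e-04), Plcg1 by at least 15.1-fold, Sh3bp2, Plcg2 and Syk. Syk, the kinase that pairs with ITAMs in B and NK cells, was at 4482, 6676 and 5414 on the IL-15 arrays, 15984, 15047 and 15124 on the resting NK arrays and 13956, 15621, 16761 and 15388 on the chips. Its splenocyte and resting NK ranges overlapped, and both lay above the IL-15 range. A second probe set of Plcg1 had a difference of -0.30 and did not pass.

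Transcription factors of the NK lineage were mostly higher: 11 of 17 tested were higher, 1 was lower and 5 did not pass, with a median of 0.93. Resting NK cells against splenocytes gave 14 higher and 0 lower of the same 17. Between IL-15 and resting NK cells 0 were higher and 9 lower, where 13.5% of all genes were higher and 11.5% lower. Eomes, a T-box factor of mature NK cells, had signals of 34128, 29643 and 41264 against 1415, 1348, 2075 and 2757, 19.1-fold higher (limma adjusted p = 6.2e-06). The related factor gene Tbx21, encoding T-bet, was at 7653, 9801 and 10668 against 991, 1395, 1201 and 1598, 7.27-fold higher (limma adjusted p = 2.3e-05), and resting NK cells had more of it, at 19055, 21262 and 23267. Nfil3, needed for NK development, was at least 10.2-fold higher, with chip 1 apart from the other chips after flooring. Id2, which restrains E proteins, was 3.74-fold higher. Ikzf2, encoding Helios, which regulatory T cells also express, was 3.28-fold lower at 2164, 1999 and 1037 against 5292, 4666, 5381 and 6403 (limma adjusted p = 0.0022), and resting NK arrays had 4742, 5119 and 4478, a log2 difference from splenocytes of -0.18 that did not pass. Zeb2, Ets1, Tox, Tox2 and Zbtb32 did not pass, with log2 differences from -0.68 to 0.55.

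Cytokine receptor genes went both ways. Of 22 tested, 6 were higher, 7 lower and 9 did not pass, where 20.8% of all genes tested were higher and 23.5% lower. Il2rb, the signalling chain shared by IL-2 and IL-15, was at 16191, 19636 and 19221 on the IL-15 arrays and 1922, 2422, 1919.9 and 3533 on the chips, 7.71-fold higher (limma adjusted p = 4.9e-05). Il12rb1 was at least 20.4-fold higher with 1 chip at the floor, Il18rap 10.4-fold, Il18r1 10.1-fold and Il15ra at least 2.69-fold. The sixth higher gene was Ifngr1, a chain of the interferon gamma receptor, with a log2 difference of 1.77. Il12rb2, the second IL-12 receptor chain, had a log2 difference of 0.75 and did not pass. Il2ra, the high-affinity IL-2 receptor chain, had signals of 399, 235 and 707 against 256, 266, 427 and 355 and did not pass (limma adjusted p = 0.58). Il7r, the receptor chain for IL-7 of naive lymphocytes, was 13.8-fold lower at 2987, 2241 and 3021 against 40400.5, 35869, 34562 and 39588 (limma adjusted p = 1.1e-05). Csf2rb, a shared myeloid receptor chain, was at least 17.6-fold lower and at the floor on all IL-15 arrays, and Il6ra, Il6st, Ifngr2, Il21r and Il4ra were lower too.

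Known STAT5 targets were more often higher than lower, 10 against 2 of 17 tested, with a median of 1.25. Cish, a feedback inhibitor of cytokine receptors, was at 9937, 9300.5 and 5598 on the IL-15 arrays and 1397, 1551, 1259 and 1936 on the chips, 5.30-fold higher (limma adjusted p = 2.9e-04), while resting NK arrays gave 1842, 1571 and 2129. The survival kinase gene Pim2 was 5.71-fold higher (12124, 10363 and 16743 against 2117, 2458, 2311 and 2109, limma adjusted p = 1.1e-04) and the cell-cycle inhibitor gene Cdkn1a 8.21-fold. Pim1, Socs1, Socs2, Osm, Ccnd2, Ccnd3 and Bcl2 were higher as well. Bcl6, a factor that STAT5 is known to repress, was 8.05-fold lower at 344, 356 and 611 against 2667, 3844, 3736 and 3440.5 (limma adjusted p = 1.4e-04), and Mcl1 was 2.21-fold lower. Myc, a driver of cell growth, did not pass, at 4074, 4096 and 3673 against 5985, 5605, 4994 and 5306 (limma adjusted p = 0.13), although resting NK cells had only 1934, 1442 and 1164. The resting NK to splenocyte differences of the same 17 genes gave 6 higher and 1 lower, where 17.5% of all genes were higher and 22.4% lower.

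Homing genes were balanced, with 10 higher and 10 lower of 23, where 20.8% of all genes tested were higher and 23.5% lower. Receptors that take lymphocytes into follicles and T-cell zones were among the lowest. Ccr7, which guides cells to T-cell zones, was at the floor on all IL-15 arrays and at 8699, 11136, 7848 and 7922 on the chips, at least 49.0-fold lower (limma adjusted p = 1.9e-05). Cxcr5, the follicle-homing receptor of B cells, was at least 57.3-fold lower, and Ccr6 26.5-fold. Cxcr4, the CXCL12 receptor, was at 737, 522 and 421 against 19071, 17178, 14968 and 16994, 31.2-fold lower (limma adjusted p = 6.6e-06). Higher were Ccr2, a receptor for inflammatory recruitment, 10.4-fold (limma adjusted p = 3e-05), Cxcr3, and the integrin genes Itga1, Itgb1, Itgb7, Itgax, Itgal and Itgb2. S1pr5, which lets mature NK cells leave lymphoid organs, was 7.41-fold higher than in splenocytes at 2279, 4585 and 5366 against 477, 464, 567 and 569, and resting NK cells had 31610.1, 34747 and 38242. Cx3cr1, the fractalkine receptor gene of mature NK cells and monocytes, was at least 4.34-fold lower than in splenocytes (limma adjusted p = 6.9e-04), with 137, 250.1 and 144 on the IL-15 arrays, 3535, 4608 and 3073 on the resting NK arrays and 1076, 980.0, 1036 and 526 on the chips. For Cx3cr1, resting NK cells were thus above and IL-15 NK cells below the mixed splenocytes.

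The largest differences among genes measured above the floor at least once in each group went beyond the canonical NK genes. Clnk, encoding the SLP-76-related adaptor MIST, was at 11687, 14725 and 9416 against 246, 170.3, 169.6 and 226, with 2 of 4 chips at the floor, and at least 57.0-fold higher (limma adjusted p = 1.9e-06). Styk1, a membrane pseudokinase gene of the NK lineage, was at least 39.1-fold higher with 2 of 4 chips at the floor (limma adjusted p = 2.9e-06). Plscr1, encoding a phospholipid scramblase, was at 19356, 21891 and 27950.0 on the IL-15 arrays, 4812, 2968 and 4077 on the resting NK arrays and 674, 602, 723 and 647 on the chips, 34.5-fold higher than in splenocytes (limma adjusted p = 3.5e-06). Errfi1, a feedback inhibitor of the EGF receptor, was 29.4-fold higher at 15736, 17777 and 22956 against 617, 605, 673 and 632. The ubiquitin ligase gene Mid1 varied widely between IL-15 arrays, at 34225, 11363 and 1752, and its at least 30.1-fold difference (limma adjusted p = 0.027) became 15.2-fold without IL-15 replicate 1 (limma adjusted p = 0.076) and 67.4-fold without replicate 3 (limma adjusted p = 0.012). Without IL-15 replicate 2 it did not pass either (limma adjusted p = 0.067).

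The genes at the floor on all 4 splenocyte chips included Vegfc, a lymphatic growth factor, at 4891, 6345 and 6279 on the IL-15 arrays and 6260.2, 9808 and 10164 on the resting NK arrays, at least 32.2-fold higher (limma adjusted p = 4.5e-06). Gzmc, Plod2 and Avil followed. Plod2, which hydroxylates collagen lysines, was at least 16.5-fold higher, and Avil, an actin-binding protein gene, at least 12.0-fold. Ahrr, the repressor of the aryl hydrocarbon receptor, was at 1244, 2600.0 and 2005 on the IL-15 arrays and at the floor on every resting NK array and every splenocyte chip, at least 10.4-fold higher than in splenocytes (limma adjusted p = 7.3e-05). Gpc1, Oplah and Rad51c completed the group, with folds of at least 11.0, at least 9.74 and at least 8.32. Of these, Rad51c, a DNA repair gene, had a second probe set with a difference of -0.42 that did not pass as higher. For all genes of the group the filter set the direction, and the chips held no spread after flooring.

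B-cell transcripts had the lowest median of the lists. All 21 tested B-cell markers were lower, with a median of -6.20. Of them 10 were at the floor on all IL-15 arrays, so for those the filter set the direction. Cd79b, the signalling chain of the B-cell receptor, was at 184, 124 and 11.5 against 58948, 59554, 56926 and 50388, at least 311-fold lower (limma adjusted p = 6.8e-04). Ms4a1, encoding CD20, was at least 349-fold lower, from 68711, 70985, 62377 and 51126 on the chips to the floor on all IL-15 arrays (limma adjusted p = 0.0029). On the resting NK arrays Ms4a1 read 10589, 10422 and 110.3, so replicates 1 and 2 carried it and replicate 3 did not. Cd24a, a surface glycoprotein gene of B and red cells, was at least 659-fold lower, which was the lowest of all named genes. Btla, Fcmr, Ly6d and the immunoglobulin genes Ighv14-2, Igkv8-30 and Iglv1 were at least 198-fold to at least 332-fold lower.

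Plasma-cell markers were lower for 7 of 8 tested genes, 3 of them at the floor on all IL-15 arrays. Jchain, which links antibody polymers, was at least 212-fold lower at 68.6, 37.6 and 122 against 39938, 38098, 37656 and 37174 (limma adjusted p = 1.5e-05), and Igha was at least 81.1-fold lower, or 53.5-fold without IL-15 replicate 3. Xbp1, a secretory factor that many cells use, did not pass. Of 19 T-cell markers, 15 were lower, 1 was higher and 3 did not pass, with a median of -3.38. Of the 15, 5 were at the floor on all IL-15 arrays. Cd3e, a chain of the T-cell receptor complex absent from the sorted NK gate, was at the floor on all IL-15 arrays and at 6278, 6714, 8840.4 and 6751 on the chips, at least 39.4-fold lower (limma adjusted p = 1.9e-06). Cd3d was at least 131-fold and the CD8 beta gene Cd8b1 at least 61.7-fold lower. Icos, a costimulatory receptor gene that activated lymphocytes share, was the 1 T-cell marker that was higher, 3.66-fold at 9721, 5827 and 8292 against 1977, 1967, 2516 and 2086 (limma adjusted p = 3.6e-04). Cd8a varied from 250 to 1686 on the IL-15 arrays and did not pass.

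Myeloid transcripts were lower throughout: 20 of 20 macrophage and monocyte markers (median -4.58) and 13 of 13 neutrophil markers (median -3.57). Of these, 13 macrophage and monocyte markers and 8 neutrophil markers were at the floor on all IL-15 arrays. For those the filter set the direction. Lyz2, the macrophage lysozyme gene, was at 196, 83.8 and 98.1 against 50055, 38818, 36308 and 43984, at least 227-fold lower (limma adjusted p = 1.8e-05), and Lyz1 was at least 445-fold lower, with a log2 difference of -5.49 when its probe sets were averaged. Csf1r, the receptor that sustains macrophages, was above the floor on every IL-15 array, at 1027, 347 and 475 against 33996, 35758, 37069.6 and 32598, 62.9-fold lower. S100a8 and S100a9, the 2 chains of neutrophil calprotectin, were at least 362-fold and at least 250.4-fold lower, S100a8 from 91003, 58743, 57474 and 84387 on the chips to 15.8, 215 and 198 on the IL-15 arrays (limma adjusted p = 1.1e-05). Of 11 dendritic-cell markers 8 were lower, 5 of them at the floor on all IL-15 arrays. Cd83 was at least 56.7-fold and Ccr9 at least 34.0-fold lower. Irf8, which NK cells also use, did not pass at 27669, 18178 and 26632 against 20215, 19748, 19746 and 22990.1. The fold of Ccr9 was 3.55 with its probe sets averaged, and 1 of them had a difference of -0.13. Among 7 basophil and mast-cell markers 5 were lower, all 5 at the floor on all IL-15 arrays. Kit, the stem cell factor receptor, was 2.62-fold higher, a call lost when the probe sets of Kit were averaged (limma adjusted p = 0.13). Without splenocyte chip 1 or chip 4, the lower basophil and mast-cell markers numbered 3.

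Red-cell and platelet transcripts were likewise low in NK cells. Of 17 erythroid markers 16 were lower, 6 of them at the floor on all IL-15 arrays, with a median of -5.32. Slc4a1, the band 3 anion exchanger, was at the floor on all IL-15 arrays and at 60949, 72815, 63004 and 54579.5 on the chips, at least 348-fold lower (limma adjusted p = 1e-06), and Alas2, which starts haem synthesis in erythroid cells, was at least 252-fold lower. Both were at the floor on the resting NK arrays too, so no NK array added spread to their tests. With the probe sets of Slc4a1 averaged, it was 73.7-fold lower. Hemgn, an erythroid nuclear factor, was only 4.43-fold lower at 13437, 5205 and 10530.2 against 49838, 32208, 39478 and 40547, and resting NK arrays had 561, 598 and 479. The haemoglobin gene Hba-a2 did not pass, at 152, 229.8 and 201 against 177, 230.0, 493 and 324. Car2, a carbonic anhydrase gene at 13802, 23628 and 16589.9 on the IL-15 arrays, and Hemgn held most of the erythroid list's summed signal in IL-15 NK cells. Of 12 platelet markers 8 were lower, led by Ppbp (at least 14.3-fold), Pf4 (at least 12.2-fold) and Clec1b (at least 12.1-fold). Of the 8, 5 were at the floor on all IL-15 arrays. Of 9 stroma and endothelium markers 4 were lower, 2 of them at the floor on all IL-15 arrays, where 23.5% of all genes tested were lower. Of 6 markers of other innate lymphoid cells 4 were lower and 1, Rora, was 2.30-fold higher, a call that was lost under 5 alternatives, among them leaving out IL-15 replicate 1, IL-15 replicate 2 or resting NK replicate 2. Without IL-15 replicate 1 the lower markers of this list numbered 2, and without IL-15 replicate 2 the stroma and endothelium list had 1 higher gene in place of 0.

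Antigen presentation by MHC class II, a function of B cells, dendritic cells and macrophages, was low in IL-15 NK cells. Of 13 class II and costimulation genes 12 were lower, 3 of them at the floor on all IL-15 arrays, with a median of -5.84. Cd74, the invariant chain, was at 269, 314 and 243 against 125489.7, 136462, 114918 and 97002, 429-fold lower (-8.75 ± 0.63 SE, limma adjusted p = 2.8e-05). H2-Aa, a class II alpha chain, was 263-fold lower at 612, 650.1 and 197 against 130956, 131368, 106967 and 87379.8 (limma adjusted p = 6.9e-05), and H2-Eb1 184-fold. Both Cd74 and H2-Aa stayed above the floor on each IL-15 array, and resting NK arrays had 12927, 15652 and 3551 for H2-Aa. MHC class I genes, which nearly all cells express, went both ways. Of 14 class I and peptide-loading genes 3 were higher, 4 lower and 7 did not pass, with a median of -0.19. Both counts lay close to the background, where 20.8% of all genes tested were higher and 23.5% lower. B2m, the class I light chain, was 1.85-fold lower at 53576, 57810.5 and 66484 against 129492, 118071, 102381 and 90213 (limma adjusted p = 0.0037), and did not pass after quantile normalization (limma adjusted p = 0.27). A second probe set of B2m was lower too, at a log2 difference of -2.60. The mean over both probe sets of B2m was 3.34-fold lower (limma adjusted p = 9.0e-04). Without IL-15 replicate 3, 1 of the 14 class I genes was higher and 2 were lower, and without replicate 1, 2 were lower.

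**Figure D4:**
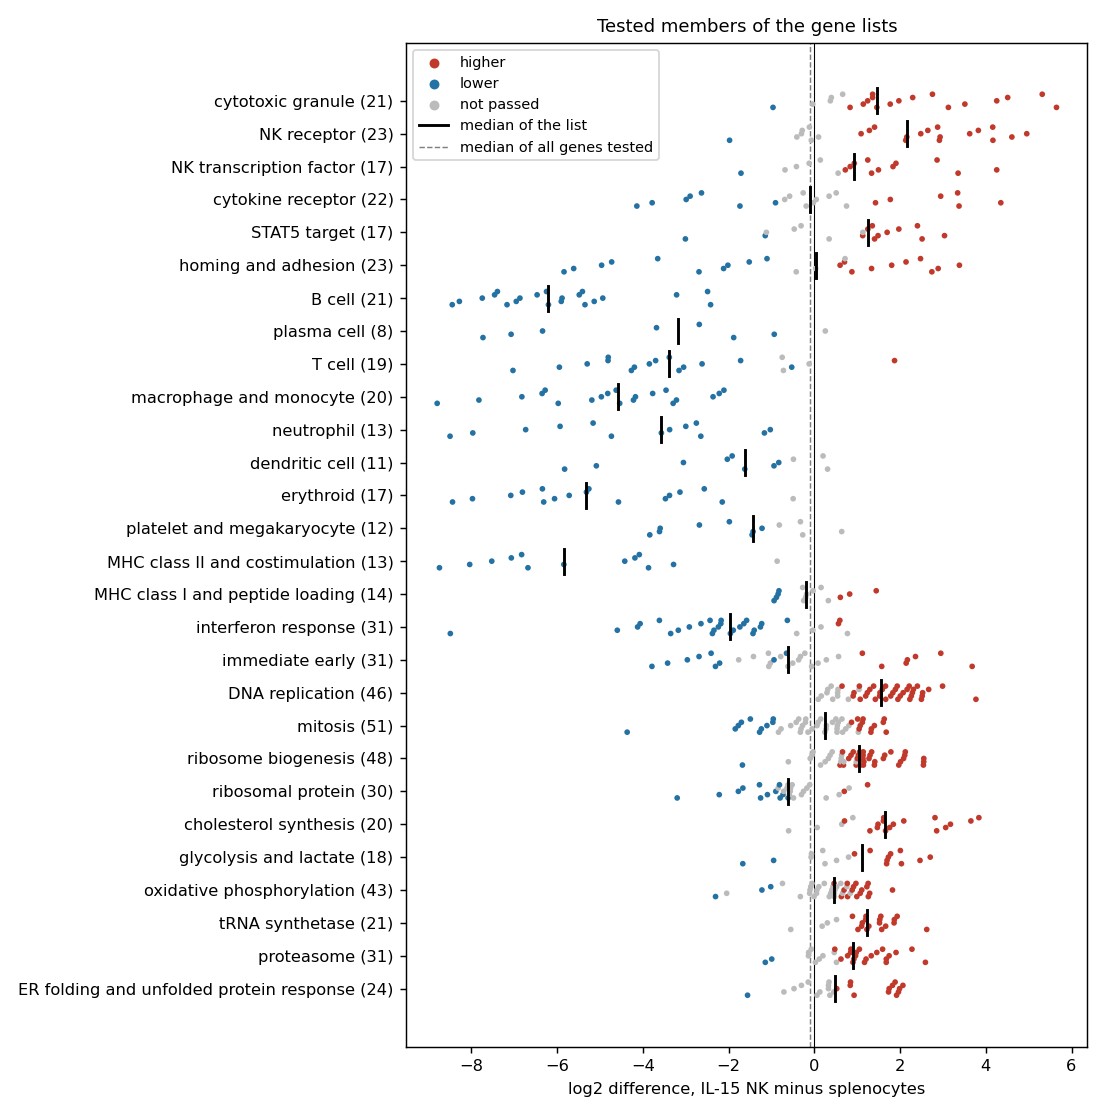
Log2 difference between IL-15 NK cells and splenocytes (horizontal axis) of each tested member of the gene lists, with the number tested in brackets; red, blue and grey points are members that were higher, lower or did not pass, thick bars are list medians and the dashed line is the median of all genes tested, -0.10. Members of the B-cell list lay between -8.45 and -2.42 and those of the DNA replication list between 0.09 and 3.77.

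Interferon-response genes were lower in IL-15 NK cells than in splenocytes. Of 31 tested, 25 were lower, 2 higher and 4 did not pass, with a median of -1.96. Rsad2, encoding the antiviral enzyme viperin, was at 174, 208 and 347 on the IL-15 arrays, 2536, 3470.1 and 3225 on the resting NK arrays and 96583, 52650.5, 95844 and 105588 on the chips. It was at least 360.1-fold lower (-8.49 ± 0.30 SE, limma adjusted p = 1.9e-06), the 3 groups did not overlap, and its 2 other probe sets were lower too, at log2 differences of -6.46 and -7.14. Cmpk2, the neighbouring gene of a nucleotide kinase, was at least 24.2-fold lower at 247, 131 and 175 against 5614, 3195, 5243 and 5818. Oasl2, of the oligoadenylate synthetase family, was at least 17.4-fold lower, Ifit1, which binds viral RNA, at least 10.2-fold, and the master regulator gene Irf7 3.71-fold. Isg20, an exonuclease gene, was 16.7-fold lower at 1094, 2863 and 569 against 19099, 12972, 25087 and 27258, or 25.7-fold without IL-15 replicate 2. For Mx1 and Irf7, both lower in IL-15 NK cells, the resting NK minus splenocyte log2 differences were -0.05 and -0.17, and neither passed. Igtp and Parp14 were higher, 1.48-fold and 1.51-fold, and 1 of these calls was lost under 11 alternatives, among them leaving out IL-15 replicate 1 or 3, splenocyte chip 1 or 2, or resting NK replicate 1.

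The promoters of Rsad2 and Ifit1 are shown because both hold letters known from the element of interferon regulatory factors (IRF). The motif searched was GAAANNGAA, on both strands of the same windows, found in 8.5% of tested genes with a promoter in the table. Only 22 of the 31 interferon-response genes (71.0%) had a promoter there, against 81.0% of all genes tested. For this lower cover, a share over the list is not given. Capitals mark the motif, read on the opposite strand in both, 119 bases before the start of Rsad2 and at 3 positions before that of Ifit1, 2 of them overlapping. The sequences are from RefSeq GRCm38.p6, chr12:26456453-26456702 on the minus strand and chr19:34640639-34640888 on the plus strand.
Rsad2 promoter: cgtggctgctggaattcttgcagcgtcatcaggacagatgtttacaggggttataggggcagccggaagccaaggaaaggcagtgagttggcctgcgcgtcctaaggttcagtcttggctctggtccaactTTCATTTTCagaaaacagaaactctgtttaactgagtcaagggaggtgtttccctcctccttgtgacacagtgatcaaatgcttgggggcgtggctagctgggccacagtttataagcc
Ifit1 promoter: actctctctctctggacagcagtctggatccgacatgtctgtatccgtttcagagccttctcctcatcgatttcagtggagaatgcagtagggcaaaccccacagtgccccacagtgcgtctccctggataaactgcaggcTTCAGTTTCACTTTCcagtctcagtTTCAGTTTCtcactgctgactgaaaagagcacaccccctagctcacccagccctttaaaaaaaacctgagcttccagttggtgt

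DNA replication genes were higher in IL-15 NK cells. Of 46 tested, 35 were higher, 0 lower and 11 did not pass, with a median of 1.56. Ung, which removes uracil from DNA, was at 24688, 11640.2 and 15545 on the IL-15 arrays and 1164, 1183, 1150.1 and 1343 on the chips, 13.6-fold higher (3.77 ± 0.30 SE, limma adjusted p = 4.2e-05). Dut, which clears dUTP, was 7.95-fold higher at 34622, 23979.9 and 25704 against 3288, 3388, 3785 and 3515, with a second probe set at 0.36 that did not pass. Mcm3, a subunit of the replicative helicase, was 6.35-fold higher, and 3 of its 4 other probe sets made the same call. Uhrf1, which maintains DNA methylation, was 5.76-fold higher at 11411, 11351 and 9761 against 2014, 1837, 1791 and 1874 (limma adjusted p = 6.4e-05). Mcm2, Mcm4, Mcm5, Mcm6, Mcm7 and Mcm10 were higher as well. Tk1, thymidine kinase, was 2.10-fold higher at 7522, 8116 and 6420.2 against 3459, 3717, 2995 and 3833 (limma adjusted p = 0.0095). Pcna, the polymerase clamp, did not pass at 67588, 65555 and 62537 against 60578, 53928, 49836 and 49156 (limma adjusted p = 0.25). The same 46 genes compared between resting NK cells and splenocytes gave 7 higher and 20 lower, with a median of -0.67. Between IL-15 and resting NK cells 40 were higher and 0 lower, where 13.5% of all genes were higher and 11.5% lower.

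Of 51 genes of mitosis tested, 12 were higher, 10 lower and 29 did not pass, with a median of 0.24. Both counts lay close to the background, where 20.8% of all genes tested were higher and 23.5% lower. Bub1b and Plk4, which act at the spindle checkpoint and the centrioles, were 3.20-fold and 3.10-fold higher (limma adjusted p = 0.0031 and 6.5e-04). Ube2c, the ubiquitin-conjugating enzyme of the anaphase-promoting complex, was 20.6-fold lower at 903, 1937 and 1124 against 27829, 21814, 25829 and 28486 (-4.37 ± 0.33 SE, limma adjusted p = 3.3e-05). Ccnb2, a mitotic cyclin, was 3.42-fold lower at 3207, 4861 and 2042 against 12339, 10143, 9466 and 11631 (limma adjusted p = 0.0095). Birc5, encoding survivin, was at 2236, 6217 and 2028 against 10601, 9892, 10169.6 and 13405 and 3.59-fold lower (limma adjusted p = 0.029), a call that was lost with every gene tested and without IL-15 replicate 1 or 3. Cdca3 was 3.25-fold lower, with a second probe set at 0.24 that did not pass. The proliferation marker Mki67 did not pass, at 26416, 25858 and 18427 against 41089, 35818, 33895 and 50605 (limma adjusted p = 0.076); its ranges did not overlap, and it passed as lower under 7 alternatives, leaving out resting NK replicate 3 among them (limma adjusted p = 0.018). Resting NK cells had far less of these transcripts, with 45 of the 51 lower than in splenocytes and a median of -2.24, and 46 of the 51 were higher in IL-15 than in resting NK cells. These comparisons share arrays with each other. Against splenocytes, the median difference of IL-15 NK cells was thus 1.56 for replication genes and 0.24 for mitosis genes, and the difference between both lists was not tested.

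**Figure D5:**
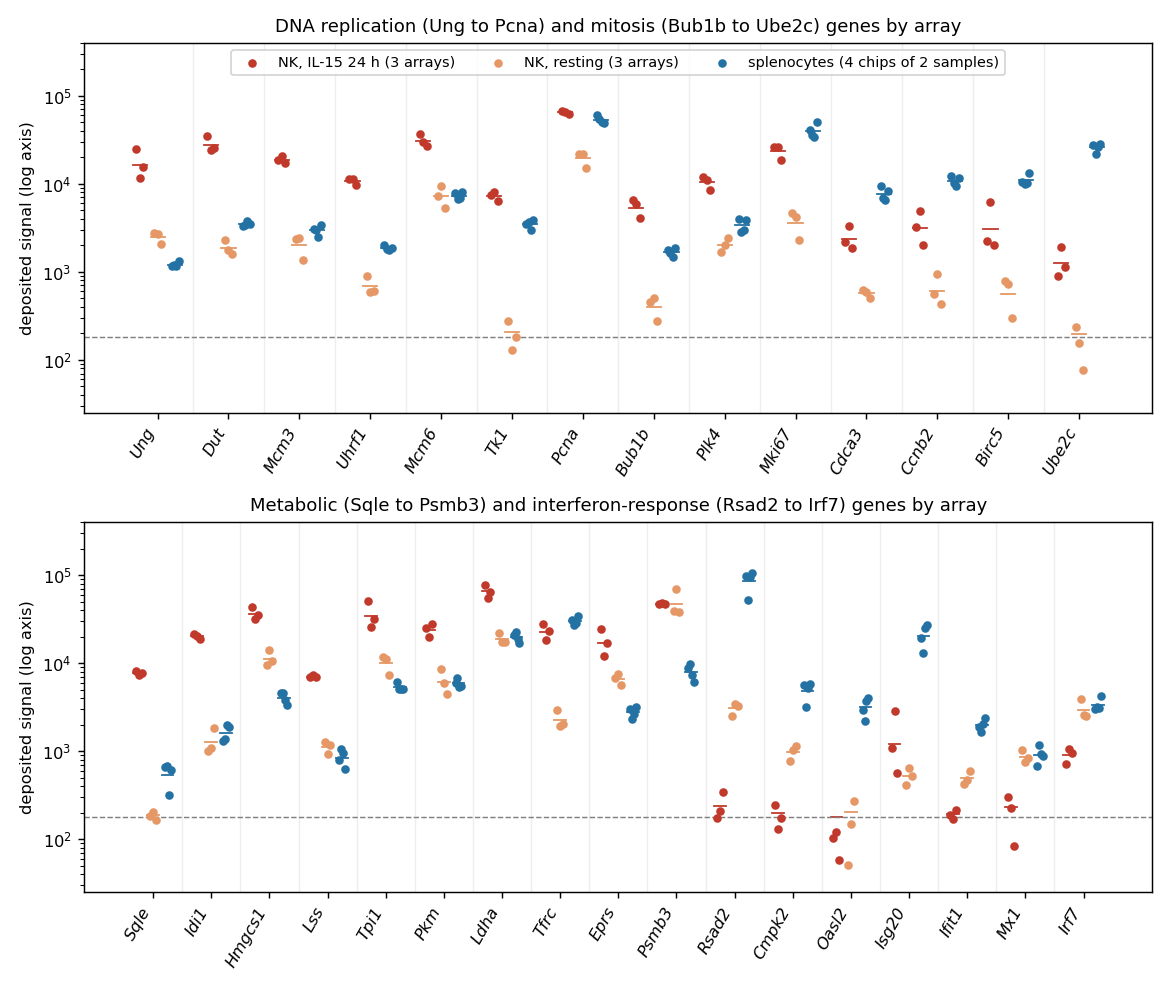
Deposited signal on each array (vertical log axis) of DNA replication and mitosis genes (top) and of metabolic and interferon-response genes (bottom) in IL-15 NK cells, resting NK cells and splenocytes; short bars are geometric means after flooring and the dashed line is the floor of 179.8. Ung to Tk1 and Sqle to Ldha were higher on each IL-15 array than on each chip, and Cdca3 to Ube2c and Rsad2 to Oasl2 were lower.

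Promoters of a replication and a mitosis gene are printed because E2F factors and CCAAT-binding factors are known regulators of the cell cycle. The E2F motifs TTTCCCGC and TTTGGCGC, on either strand, stood in 12 of 38 replication genes with a promoter (31.6%), 1 of 42 mitosis genes (2.4%) and 3.4% of all tested genes with one. The CCAAT box, CCAAT on either strand, stood in 31 of 42 mitosis genes (73.8%), 23 of 38 replication genes (60.5%) and 42.5% of all. Capitals mark 2 E2F motifs before the start of Mcm6, which was 4.20-fold higher, and 3 CCAAT boxes at 87, 54 and 21 bases before the start of Ccnb2. The stretches are chr1:128359706-128359955 and chr9:70421555-70421804 of GRCm38.p6, both on the minus strand.
Mcm6 promoter: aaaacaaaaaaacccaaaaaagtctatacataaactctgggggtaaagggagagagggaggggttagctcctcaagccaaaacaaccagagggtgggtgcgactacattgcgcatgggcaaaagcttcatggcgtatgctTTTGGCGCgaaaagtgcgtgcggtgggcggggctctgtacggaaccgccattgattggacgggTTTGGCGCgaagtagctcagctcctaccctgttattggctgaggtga
Ccnb2 promoter: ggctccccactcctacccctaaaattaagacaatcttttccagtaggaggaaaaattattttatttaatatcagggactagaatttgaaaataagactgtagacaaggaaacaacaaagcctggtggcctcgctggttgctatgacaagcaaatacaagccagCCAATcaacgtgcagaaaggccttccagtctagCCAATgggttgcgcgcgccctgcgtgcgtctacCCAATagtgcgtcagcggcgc

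Ribosome production was split between assembly factors and ribosomal proteins. Of 48 ribosome biogenesis genes 32 were higher, 1 lower and 15 did not pass, with a median of 1.04. Rrp9 and Rrs1, which act in small-subunit and large-subunit assembly, were 5.87-fold and 5.86-fold higher, Rrs1 at 25152, 21772 and 22306 against 4161, 3451, 3404 and 4875 (limma adjusted p = 1.5e-05). Dkc1, the pseudouridine synthase dyskerin, was 5.83-fold higher, with 1 of 2 other probe sets making the same call. Imp3 was the 1 lower gene, 3.20-fold, and without resting NK replicate 2 the lower genes numbered 2. Npm1, an abundant nucleolar chaperone, did not pass. Of 30 ribosomal protein genes 2 were higher, 12 lower and 16 did not pass, with a median of -0.61. Among all genes tested 20.8% were higher and 23.5% lower. Rps15 was 4.66-fold lower at 12009, 40372 and 21318 against 119326, 112984, 93087 and 84236 (limma adjusted p = 0.0068), or 11.6-fold with its probe sets averaged, and Rpl27 was 3.18-fold lower. The count of lower ribosomal protein genes ran from 6 after quantile normalization to 21 with only the 7 arrays fitted, was 7 without IL-15 replicate 3 and 20 without resting NK replicate 2, and the higher count was 5 after quantile normalization and 1 without IL-15 replicate 1. For Rpl27, 0 of 2 other probe sets passed as lower, with differences of -1.04 and -0.72. Ribosomal protein transcripts have pseudogene copies, so their signals may be shared.

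Cholesterol synthesis was the metabolic group with the largest median, 1.64: of 20 genes tested 16 were higher, 0 lower and 4 did not pass. Sqle, squalene epoxidase, was at 8113, 7397 and 7781 on the IL-15 arrays, 183, 205 and 165 on the resting NK arrays and 653, 684, 321 and 604 on the chips, 14.3-fold higher than in splenocytes (3.84 ± 0.25 SE, limma adjusted p = 1.1e-05). Chip 3 stood apart from the other 3 chips for Sqle. Idi1, which isomerises the isoprenoid unit, was 12.6-fold higher at 21630.0, 20133 and 18818 against 1301, 1358, 1971 and 1900.5 (limma adjusted p = 2.5e-05). Hmgcs1, which makes HMG-CoA, was 9.03-fold higher at 43901, 31265 and 35549.5 against 4626, 4549, 3779.7 and 3371 (limma adjusted p = 1.5e-05), and Lss, lanosterol synthase, 8.37-fold, with 2 dimmer probe sets at 0.40 and 0.48 that did not pass. The sterol-sensing factor gene Srebf2 did not pass, at 1598, 1553 and 1453 against 1849, 2153, 2262 and 3241 (limma adjusted p = 0.16). Between resting NK cells and splenocytes 3 of the 20 were higher and 4 lower.

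The promoter of Hmgcs1 is shown because it holds both elements known from sterol genes. A CCAAT box stood in 16 of the 16 cholesterol genes with a promoter in the table (100.0%), against 42.5% of all tested genes with one. The SREBP motif TCACCCCAC, on either strand, stood in 1 of the 16 (6.2%), Hmgcs1, and in 0.7% of all. Capitals in chr13:119690101-119690350 of GRCm38.p6, plus strand, mark 3 CCAAT boxes read on the opposite strand and the SREBP motif, 137 bases before the start.
Hmgcs1 promoter: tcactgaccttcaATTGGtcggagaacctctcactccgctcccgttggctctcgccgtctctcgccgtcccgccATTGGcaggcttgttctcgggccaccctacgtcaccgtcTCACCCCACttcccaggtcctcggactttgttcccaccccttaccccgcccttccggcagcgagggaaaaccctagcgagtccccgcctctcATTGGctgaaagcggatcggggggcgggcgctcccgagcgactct

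Energy and nutrient genes were higher in part. Of 18 glycolysis and lactate genes 10 were higher, 2 lower and 6 did not pass, with a median of 1.12. Among all genes tested 20.8% were higher and 23.5% lower, the background for each list of this paragraph. Tpi1, triose phosphate isomerase, was 6.51-fold higher at 50050.3, 25864 and 32022 against 6117, 5029.5, 5078 and 5103 (limma adjusted p = 2.2e-04), and Pkm, pyruvate kinase, 4.09-fold at 25094, 19823 and 27746 against 5870.1, 6794, 5417 and 5486 (limma adjusted p = 4.9e-04). Pfkp and Pgk1 were 5.52-fold and 4.02-fold higher, and Ldha, which makes lactate, 3.31-fold. Ldhb and the lactate carrier gene Slc16a1 were lower, Ldhb 3.18-fold (limma adjusted p = 0.038). The 2 lower calls became 1 under 5 alternatives, leaving out splenocyte chip 4 or resting NK replicate 1 among them. Slc2a1, the glucose transporter GLUT1, did not pass. Of 43 oxidative phosphorylation genes 16 were higher, 3 lower and 24 did not pass, with a median of 0.47. Ndufc1 was 3.54-fold higher and Ndufa6 4.94-fold lower. A second probe set of Ndufc1 had a difference of 0.15 and did not pass, and the mean over both gave 1.98-fold. Without resting NK replicate 2 the lower oxidative phosphorylation genes numbered 5. Of 11 amino acid and iron uptake genes 4 were higher and 1 lower, where 20.8% of all genes tested were higher and 23.5% lower. The arginine carrier gene Slc7a1 was 2.59-fold and the iron carrier gene Slc11a2 2.84-fold higher, and Slc43a1, an amino acid carrier, was lower (log2 difference -4.32) and at the floor on all NK arrays. Slc7a1 and Slc11a2 had 2 other probe sets each, of which 1 made the same call and 1 pointed the other way, at -0.23 and -0.20. With its probe sets averaged, Slc11a2 was 1.56-fold higher. Without resting NK replicate 3 the lower uptake genes numbered 2. The transferrin receptor gene Tfrc, which red-cell precursors in spleen also use, did not pass at 28129, 18225 and 22995 against 30891, 27327, 28758 and 34114, where resting NK cells had 2902, 1906 and 2028.

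Protein synthesis and turnover genes were higher in larger numbers. Of 21 tRNA synthetase genes 17 were higher and 0 lower, with a median of 1.23. Among all genes tested 20.8% were higher and 23.5% lower, the background for each list of this paragraph. Eprs, which charges glutamate and proline tRNAs, was 6.16-fold higher at 24087, 12161 and 16928 against 2987, 2309, 2659 and 3213 (limma adjusted p = 1.6e-04), or 2.64-fold with its probe sets averaged, and Kars was 3.82-fold higher. Of 31 proteasome genes 21 were higher, 2 lower and 8 did not pass, with a median of 0.90. Psmb3, a core subunit, was 6.03-fold higher at 47212, 47699 and 47194 against 8838, 9638, 7272 and 6166 (limma adjusted p = 1.2e-04) and read 39152, 69343 and 38434 on the resting NK arrays. Psmd3, of the regulatory lid, was 4.85-fold higher, and Psmb1 was 2.21-fold lower. Of 24 genes of ER folding and the unfolded protein response 12 were higher, 1 lower and 11 did not pass, with a median of 0.49. Hyou1, an ER chaperone, was 4.19-fold higher (limma adjusted p = 3.2e-04), while the stress factor gene Ddit3 was 2.94-fold lower and the chaperone gene Hspa5 did not pass. Without IL-15 replicate 2 the lower genes of this list numbered 2.

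Immediate-early genes, which respond to a stimulus within minutes, were called in shares close to those of all genes. Of 31 tested, 7 were higher, 9 lower and 15 did not pass, with a median of -0.62, against 20.8% higher and 23.5% lower among all genes tested. Klf2, a factor of quiescent lymphocytes, was at 1590.2, 2802 and 2643 on the IL-15 arrays, 30271, 29081 and 17564 on the resting NK arrays and 24362, 25697, 25749 and 22005 on the chips, 10.7-fold lower than in splenocytes (limma adjusted p = 7.8e-05). Fos, an AP-1 subunit, was 7.80-fold lower at 1656, 1697 and 1176 against 13882, 10094, 8967 and 14479, while resting NK arrays had 64866, 77751 and 27384. Gadd45a, a growth-arrest gene, was 13.8-fold lower. Fosl2, another AP-1 subunit, was 7.73-fold higher at 6380.2, 3787 and 4178 against 539.7, 639.8, 568 and 672 (limma adjusted p = 4.7e-05). Nr4a2, an orphan nuclear receptor, was 12.8-fold higher (limma adjusted p = 0.0092), but 0 of its 3 other probe sets passed as higher and their mean did not pass (limma adjusted p = 0.11). Of 14 BCL2 family genes 4 were higher and 5 lower, against the same 20.8% and 23.5% of all genes tested. With averaged probe sets, 1 BCL2 family gene was higher. Bcl2, which promotes survival, was 3.24-fold higher at 31874, 30684 and 34269 against 10547, 8965, 8723 and 11826 (limma adjusted p = 0.0059), with the same call in its 4 other probe sets. The pro-death genes Pmaip1 and Bak1 were 5.63-fold and 3.58-fold lower. Bcl2l11, encoding the pro-death protein BIM, was 4.10-fold higher in its brightest probe set, and did not pass when its probe sets were averaged (limma adjusted p = 0.071).

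Some genes meant as controls differed too. Actb, beta-actin, was at 100322, 85649.5 and 102526 against 168894, 165516, 147312 and 141199, 1.62-fold lower (limma adjusted p = 0.044), and the call was lost under 9 alternatives, among them quantile normalization and leaving out any of the 3 IL-15 replicates, splenocyte chip 1 or 2, or resting NK replicate 1. A second probe set of Actb was lower too, at a log2 difference of -2.65. The mean over both probe sets of Actb was 3.19-fold lower (limma adjusted p = 2.8e-04). Of 27 genes of unrelated tissues 12 were tested, with 1 higher, 2 lower and 9 that did not pass, and a median of -0.21. The higher one was Ckm, muscle creatine kinase, at least 3.34-fold at 659, 792 and 543 against 51.7, 257, 85.7 and 26.7. Gapdh was not tested as a single gene, and Klrb1c, encoding NK1.1, and Il2rg, the common gamma chain, were not analysed here.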

How the data were processed

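RNA of 3 IL-15 NK, 3 resting NK and 4 splenocyte arrays was hybridised to Affymetrix MOE430_2 arrays. The deposited values are linear signal intensities per probe set, made by the authors with the GCOS 1.4 software, as the submitters' processing notes name it. How probes were summarised, and to what target arrays were scaled, is not given in the sources used here. The trimmed mean (2% cut from each end) was almost equal on every array, so a global change in RNA per cell would not be seen.

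Of 45101 probe sets, 34945 had 1 gene symbol in the platform annotation, 932 several, 9160 none and 64 were controls. RefSeq (GRCm38.p6) held 34741 of the 34945, and 0 symbols were updated. Each gene was represented by the probe set with the highest mean. Values below 179.8, the median over arrays of the 40th percentile, were raised to it before log2, and a gene was tested when above it on at least 3 of the 7 arrays. The 4 chips were averaged into 2 samples in all 3 ways they can pair, and each gene kept its largest p. Tests used limma 3.58.1 in R 4.3.3 (lmFit, eBayes with trend) over all 3 groups, which share 1 estimate of spread, with Benjamini-Hochberg adjustment over 12465 genes and a threshold of 0.05. The fit was also run on simulated data, without the floor or the filter, so that run does not cover calls at the floor.

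Members of the gene lists were chosen with earlier results of these data known. Named genes were a fixed set of NK, lineage, proliferation and control genes, the 10 largest differences each way among genes above the floor in both groups without overlap, the 8 brightest each way at the floor in the other group, and up to 4 passing members of each list with the largest differences; predicted genes were left out of the extremes. Other list members, and the promoters printed, were chosen after their values were seen. Alternatives covered the floor, the filter, the offset, quantile and median scaling, probe-set choice, the arrays fitted, chips as samples, eBayes without trend, the replicate block and leaving out each array. The 3 alternatives without 1 resting NK array were chosen after seeing the data. Same-numbered IL-15 arrays and splenocyte chips had correlations of 0.0457, 0.0689 and 0.0084 between their deviations from the group means, so the numbers in the titles were not taken as pairs. For same-numbered IL-15 and resting NK arrays, which the design text calls pairs without numbering them, they were 0.0937, 0.2709 and 0.0622, and IL-15 minus resting differences were fitted without a pair term.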

Additional observations from a re-analysis of the deposited data

Results flagged for a closer look

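Among 168 named genes, 5 had 1 splenocyte chip apart from the other 3, with the gap to the nearest chip divided by the range of the 4 chips above Dixon's 95% critical value for 4 values. For 4 independent values chance gives such a gap in about 1 of 20 groups, and 5 of 168 is below that rate. The chips are 2 samples with 2 chips each, so that rate need not hold here. Nfil3 had a ratio of 0.897, with chip 1 at a log2 signal of 8.57 and the other 3 at or near the floor, 7.49. That ratio depends on flooring, since the deposited signals of chips 1 to 4 were 379.4, 194.2, 113.5 and 189.1. Tpi1 had a ratio of 0.926, with chip 1 at 12.58 against 12.30 to 12.32. Rsad2 had a ratio of 0.861, with chip 2 at 15.68 against 16.55 to 16.69. Sqle had a ratio of 0.836, with chip 3 at 8.33 against 9.24 to 9.42. Rps27 had a ratio of 0.915, with chip 4 at 10.24 against 11.63 to 11.76. The groups of 3 NK arrays were too small for this check.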

How the results depend on the processing

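With 5524 genes passing in all, the count was 9797 when every probe set was tested singly (3964 higher and 5833 lower), on 23116 probe sets in place of 12465 genes. It was 4616 to 5221 when an IL-15 array or a splenocyte chip was left out, and 6995 with the replicate block by the number in the titles. It was 4532 with every gene tested, 6000 with only the 7 arrays, 6746 with 4 chips taken as 4 samples and 5381 after quantile normalization. No named gene changed the sign of its difference, taken at its brightest probe set or the mean of its probe sets, under any alternative that tested it. Single probe sets differed more: for 69 passing named genes at least 1 further probe set was tested, and in 17 of these a further one pointed the opposite way. Of the 166 named genes that passed, 152 kept their call under every alternative in which they were tested. The other 14 lost it under at least 1: Actb, B2m, Bcl2l11, Birc5, Il17rb, Kit, Mid1, Ndufa5, Ndufv2, Nr4a2, Pdia3, Psme1, Rora and Tnfrsf25. Genes at the floor on all 4 splenocyte chips could not be tested without an IL-15 array, since too few arrays then lay above the floor. With the floor at the 55th percentile 164 of the 166 kept their call, and the rest were not tested. With the replicate block, mitosis genes that were higher numbered 21 in place of 12 and ribosomal protein genes that were lower 22 in place of 12. Lower immediate-early genes numbered 14 with only the 7 arrays in place of 9, lower STAT5 targets 5 with averaged probe sets in place of 2, and higher BCL2 family genes 1 with averaged probe sets in place of 4. Folds of named genes moved by over 1.5 times for 42 genes with the floor at the 25th percentile, 64 at the 55th, 19 with log2(signal + 64) and 51 with averaged probe sets; the causes were not tested. The precision is limited by 2 splenocyte samples, by an unknown chip pairing and by the floor, below which differences are bounds.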
